A study of Mus musculus with 12 samples.

Results

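The transcripts described here are those of the mitochondrial respiratory chain and ATP synthase in mouse kidney cortex, together with the nuclear factors that assemble complexes I and II. They were chosen by symbol, as every row of the count table whose symbol begins with Nduf, Sdha, Sdhb, Sdhc, Sdhd, Uqcr, Cox4 to Cox8, Atp5, mt-Nd, mt-Co, mt-Cytb or mt-Atp, leaving out symbols that contain -ps. Of 55450 rows, 124 matched, 9 were dropped for -ps and 115 remained, under 114 symbols because Atp5o has 2 gene IDs. By complex, 54 belonged to complex I, 8 to complex II, 9 to complex III, 24 to complex IV and 20 to complex V. The nucleus encodes 102 of them and the mitochondrial genome 13. The symbol rule also takes in 13 assembly factors (Ndufaf1 to Ndufaf8, Sdhaf1 to Sdhaf4 and Cox7a2l), and Ndufa4 and Ndufa4l2 were counted with complex IV. Bulk mRNA sequencing had been done on 4 groups of 3 samples from mice aged 12 weeks at collection. They were Tg26 mice given INT-747, WT mice given INT-747, Tg26 mice given NR and WT mice given NR. Tg26 mice carry an HIV-1 transgene and are a model of HIV-associated nephropathy. INT-747 is another name for obeticholic acid, a bile acid analog that activates the nuclear receptor FXR, and NR is nicotinamide riboside, a precursor of NAD. The labels used here list no untreated mice, so a treatment comparison sets one agent against the other and neither against no agent. They give no dose, strain background or sex.

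Complex I oxidises NADH and complex II oxidises succinate, and both pass electrons to ubiquinone. Complex III hands the electrons to cytochrome c and complex IV to oxygen, while ATP synthase, or complex V, uses the resulting proton gradient to make ATP. The mitochondrial genome encodes a few core subunits of complexes I, III and IV and membrane subunits of complex V. The nucleus encodes all of complex II, every accessory subunit and the factors that insert cofactors and join subassemblies. Proximal tubule cells, which fill most of the cortex, reabsorb solute mainly on mitochondrial ATP and are rich in these transcripts.

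Libraries held between 22286343 and 28952177 counts, and 15708 genes had enough counts to test. Markers of proximal tubule summed to between 17072 and 46039 CPM (counts scaled to a common library size) in the 12 libraries, and the 5 skeletal muscle markers summed to between 0 and 2.68 CPM. A pair of libraries stood apart, both from Tg26 mice given NR. Replicate 1 of that group had a composition (TMM) scaling factor of 1.184, against 0.928 to 1.05 in the other 11 libraries, and the highest summed macrophage markers, at 609 CPM. Replicate 3 alone held Xist counts (5816, at most 8 elsewhere) and no Y-linked counts, so the data show 1 female library among 11 male ones. The proximal tubule markers of this female library had the lowest sum. Such a sum follows the most abundant markers on the list, and whether it differs by sex was not tested. As replicates 1 and 3 stood apart, the nuclear and mitochondrial medians that rest on Tg26 mice given NR are also given without each. The calls within Tg26 mice are given that way too. Most values of single genes, complexes and count shares rest on all 3 libraries of the group. In bulk tissue, fewer cells of a type cannot be told apart from less RNA per cell. The labels do not say whether the 3 samples of a group came from separate mice or litters, so p-values measure the spread between these samples.

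Several member transcripts have near-identical copies elsewhere in the genome that took part of their reads, and this touches the mitochondrial genes most. A block of unprocessed pseudogenes on chromosome 1 (mm10, chr1:24611535-24616197, minus strand) repeats 7 mitochondrial genes at 99% identity or more. The copy Gm28661, identical to mt-Co2 over 681 bases, held a mean of 324770 counts, against 13629 for mt-Co2 itself. Copies took 96.0% of the pooled counts of mt-Co2, 90.8% of those of mt-Atp6, 90.4% of those of mt-Co3, 78.4% of those of mt-Nd3 and 61.8% of those of mt-Nd4l. For mt-Co1 the share was 6.73% and for mt-Nd4 0.326%. The remaining 6 mitochondrial genes had no such copy. Among nuclear members, the processed pseudogene Ndufb4c on chromosome 15, itself a member by its symbol, is identical to Ndufb4 over 390 bases and took 64.5% of their joint counts. BC002163 took 39.7% of the counts shared with Ndufs5 and Gm15920 took 16.7% of those shared with Ndufa12. Values of these genes alone are uncertain, and the mitochondrial medians are given both as deposited and with the 19 copies added to the 15 genes they match, an alternative chosen after seeing the data. The libraries used a strand-marking kit, but whether the counting used strand is not given in the sources used here. Without strand, reads of Sdhaf1 and Ndufaf2 could not be told from those of opposite-strand genes that overlap 69.6% and 65.6% of their exon bases.

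**Figure D1:**
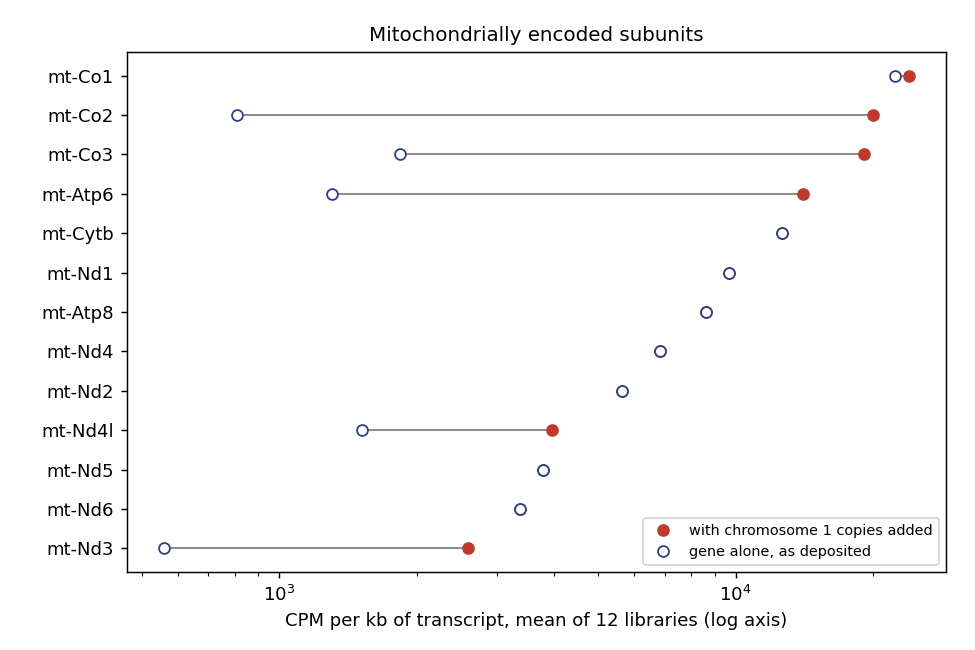
Level of the 13 mitochondrially encoded subunits in CPM per kb of transcript (mean of 12 libraries, log axis), for the gene alone as deposited (open circles) and with its chromosome 1 copies added (filled circles). Adding the copies moved mt-Co2 to 19983 CPM per kb, against 809 CPM per kb for the gene alone, and moved mt-Co3 and mt-Atp6 in the same way; mt-Nd4, whose copy share is 0.326%, and the genes without a copy show an open circle only.

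With copies added, the mitochondrial genes were the most abundant members per kb of transcript. mt-Co1, the catalytic subunit of cytochrome c oxidase, stood at 23904 CPM per kb, followed by mt-Co2 at 19983, mt-Co3 at 19050 and mt-Atp6, the proton channel subunit of ATP synthase, at 14050. mt-Nd3 was the lowest, at 2594 CPM per kb. As deposited, without the copies, mt-Co2 was the second lowest of the 13 at 809 CPM per kb. The order within the mitochondrial set therefore depended on whether the copies were added.

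Nuclear subunits lay far below that. In complex V the catalytic beta subunit Atp5b had the highest level of the set at 1654 CPM per kb, and the membrane subunit Atp5j2 the lowest of the subunits at 159. In complex IV, Cox4i1 led at 725 CPM per kb and Cox5b was lowest among the common subunits at 158. In complex III, the hinge protein Uqcrh had 388 CPM per kb and the ubiquinone-binding subunit Uqcrq 86.9. The flavoprotein Sdha and the membrane anchor Sdhc of complex II had 296 and 82.04 CPM per kb. In complex I the range ran up to 324 for Ndufb8, with Ndufab1, the mitochondrial acyl carrier protein, at 26.3 CPM per kb. The assembly factors other than Cox7a2l lay between 1.39 CPM per kb for Sdhaf3 and 14.4 for Sdhaf4, and Cox7a2l, which joins complexes into supercomplexes, had 68.9.

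In each isoform pair measured here, the widely expressed form had the higher level per kb. Cox4i1, Cox6a1, Cox6b1, Cox7a2, Cox8a and Ndufa4 are the widely expressed forms, and their partners are known from lung, heart, muscle, testis or hypoxic cells. Cox6a1 stood at 362 CPM per kb and its muscle form Cox6a2 at 0.120, which is 0 to 4 counts in a library. Cox4i1 stood at 725 CPM per kb and Cox4i2 at 0.341. The partners that were high enough to test were the testis form Cox6b2 at 8.80 CPM per kb against 463 for Cox6b1, the muscle form Cox7a1 at 16.03 against 309 for Cox7a2, and Ndufa4l2, a hypoxia-responsive gene, at 2.003 against 576 for Ndufa4. In all, 106 of the 115 members were tested, 93 nuclear and all 13 mitochondrial. The 9 left out were Cox4i2, Cox6a2, Cox6c2, Cox7b2, Cox8b, Cox8c, Ndufa11b, Ndufs6b and the second Atp5o ID, none above 21 counts in a library.

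Library by library, the nuclear subunits varied most among Tg26 mice given NR. Relative to each gene's mean over 12 libraries, the median log2 CPM of the 75 tested nuclear subunits was 0.08, -0.08 and 0.14 in Tg26 mice given INT-747 and -0.01, -0.01 and 0.04 in WT mice given INT-747. It was -0.23, -0.08 and 0.11 in Tg26 mice given NR and 0.06, 0.02 and -0.01 in WT mice given NR. The 3 libraries of the Tg26 NR group had the widest range of the 4 groups, with replicate 1 lowest of all 12 and the female replicate 3 among the highest. The 13 mitochondrial genes had the same order within that group, at -0.43, -0.14 and 0.08, against 0.02, 0.13 and 0.07 in WT mice given NR. Libraries of each Tg26 group overlapped those of the WT group on the same agent for both sets.

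**Figure D2:**
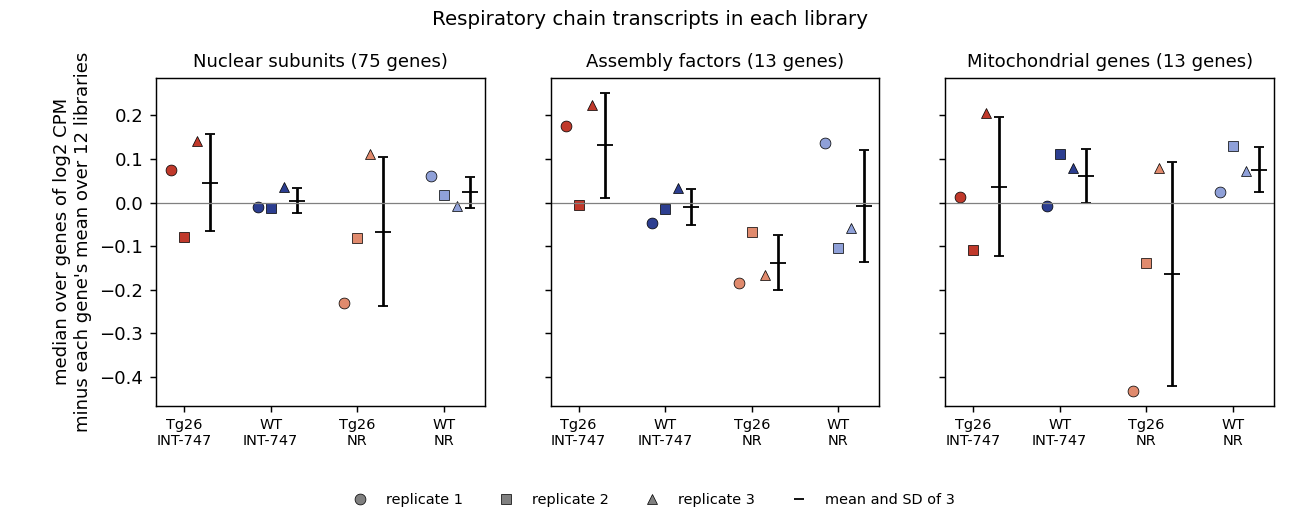
Median over genes of log2 CPM minus each gene's own mean over the 12 libraries, for 75 nuclear subunits, 13 assembly factors and 13 mitochondrial genes; each point is a library, and bars give the mean and SD of 3. Replicate 1 of the Tg26 NR group is the lowest library in all 3 panels, and the assembly factors of the 3 Tg26 NR libraries are all below 0.

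The treatment comparison within Tg26 mice was where single members passed the test. In Tg26 mice given INT-747, against Tg26 mice given NR, 81 of 93 nuclear members were higher, with a median log2 difference of 0.13, and 12 of 13 mitochondrial genes, with a median of 0.21, or 13 of 13 and 0.17 with copies added. Over all genes tested, 46.1% were higher and the median was -0.04. The 13 assembly factors had a median of 0.25 (12 higher). The 36 complex I subunits had 0.12 (33 higher), the 8 complex III subunits 0.12 (8 higher) and the 16 complex V subunits 0.13 (14 higher). The 11 common subunits of complex IV had a median of 0.02. By edgeR's quasi-likelihood test with Benjamini-Hochberg adjustment, 3 members passed an adjusted p of 0.05 (all higher in Tg26 mice given INT-747), of 106 tested, while 4.38% of all genes passed. That share is no larger than the background, so the count is not a result about the chain as a whole. DESeq2 called 7 members, where it called 13.7% of all genes.

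Ndufaf4, a complex I assembly factor that acts on the early intermediates of the enzyme, rose most clearly. It had 57.3, 51.02 and 65.9 CPM in Tg26 mice given INT-747, against 36.97, 38.1 and 40.5 CPM in Tg26 mice given NR. All 3 libraries of the INT-747 group lay above all 3 of the NR group. The log2 difference was 0.59 ± 0.11 (SE), with an edgeR adjusted p of 0.0274. Ndufb4, an accessory subunit of the membrane arm of complex I, had 50.1, 43.9 and 53.4 CPM in Tg26 mice given INT-747, against 37.1, 41.02 and 38.4 CPM in Tg26 mice given NR. Again the groups did not overlap. Its log2 difference was 0.34 ± 0.08 (SE) (edgeR adjusted p 0.0447). The third call, the pseudogene copy Ndufb4c, differed by 0.35 ± 0.09 (SE) (edgeR adjusted p 0.0457), and since its sequence is that of Ndufb4 both rows may count the same reads. With both rows summed, Ndufb4 had 137, 127 and 155 CPM in Tg26 mice given INT-747 and 105, 112 and 112 CPM in Tg26 mice given NR, a log2 difference of 0.35 ± 0.08 (SE) (edgeR adjusted p 0.0432). With all copies summed, 2 members were called, Ndufaf4 and Ndufb4.

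The promoters of these called genes and of the complex II assembly factors Sdhaf2 and Sdhaf3 are printed here because these genes had the smallest p-values among coding nuclear members that were higher. They run from 250 bases before the start to 50 after it, from RefSeq on GRCm38.p6, 5′ to 3′ on the gene's strand, with capitals for motifs searched on both strands: NRF1 (GCGCA, any base, then GCGC), YY1 (GCCATNTT), ETS (CCGGAAG), ERR (TCAAGGTCA) and NF-Y (CCAAT). Ndufaf4 is at chr4:24897833-24898132 (plus strand), Ndufb4 at chr16:37654319-37654618 (minus), Sdhaf2 at chr19:10525160-10525459 (minus) and Sdhaf3 at chr6:6955768-6956067 (plus).
Ndufaf4: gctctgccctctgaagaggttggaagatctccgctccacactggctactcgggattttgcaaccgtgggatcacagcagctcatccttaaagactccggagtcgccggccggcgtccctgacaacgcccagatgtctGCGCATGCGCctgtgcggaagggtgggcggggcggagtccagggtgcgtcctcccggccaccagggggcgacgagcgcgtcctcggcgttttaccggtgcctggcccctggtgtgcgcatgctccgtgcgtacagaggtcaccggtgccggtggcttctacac
Ndufb4: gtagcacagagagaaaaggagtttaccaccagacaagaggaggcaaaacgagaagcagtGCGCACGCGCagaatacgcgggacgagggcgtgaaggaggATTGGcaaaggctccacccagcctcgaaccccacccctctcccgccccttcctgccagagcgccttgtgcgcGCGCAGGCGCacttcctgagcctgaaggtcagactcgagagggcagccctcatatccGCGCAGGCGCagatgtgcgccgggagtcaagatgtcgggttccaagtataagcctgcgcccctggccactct
Sdhaf2: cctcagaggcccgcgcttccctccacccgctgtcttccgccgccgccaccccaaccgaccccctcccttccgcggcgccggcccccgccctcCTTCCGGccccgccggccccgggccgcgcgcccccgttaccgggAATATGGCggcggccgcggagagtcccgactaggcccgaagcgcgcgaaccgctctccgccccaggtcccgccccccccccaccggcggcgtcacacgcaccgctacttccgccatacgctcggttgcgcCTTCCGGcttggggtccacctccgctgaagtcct
Sdhaf3: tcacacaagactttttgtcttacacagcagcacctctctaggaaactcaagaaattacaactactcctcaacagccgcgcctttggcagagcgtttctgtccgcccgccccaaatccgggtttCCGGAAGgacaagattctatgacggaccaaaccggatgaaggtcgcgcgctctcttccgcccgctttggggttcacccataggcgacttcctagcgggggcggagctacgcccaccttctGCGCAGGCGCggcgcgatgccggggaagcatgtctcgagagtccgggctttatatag
Ndufaf4 holds an NRF1 match, Sdhaf3 an ETS and an NRF1 match, Ndufb4 NRF1 and NF-Y matches and Sdhaf2 ETS and YY1 matches. NRF1 and the ETS family factor GABP are transcription factors long known for binding promoters of respiratory chain genes. Of 97 nuclear coding members, 80 had a promoter in the table. NRF1 matches were found in 25.0% of the 80, against 6.6% of the promoters of all 17491 protein-coding genes. For YY1 the shares were 22.5% of members against 6.7% of protein-coding genes, for ETS 25.0% against 11.9%, for ERR 2.5% against 0.3% and for NF-Y 43.8% against 39.0%. Base composition bears on these shares, so the promoters with at least 55% GC were also compared, 59 of members and 9559 of protein-coding genes. There NRF1 matches were found in 30.5% of members against 10.7%, YY1 in 20.3% against 7.3%, ETS in 25.4% against 16.9%, ERR in 3.4% against 0.2% and NF-Y in 40.7% against 35.7%. By complex, NRF1 matches occurred in 57.1% of 7 complex II promoters and 7.1% of 14 complex IV promoters. YY1 matches occurred in 33.3% of 39 complex I promoters. Matches of ETS and YY1 can share bases, so the shares of these motifs are not independent, and a match describes letters only.

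Complex II assembly factors were higher together in Tg26 mice given INT-747. Sdhaf2, which inserts the flavin into Sdha, had 28.1, 29.1 and 31.01 CPM in Tg26 mice given INT-747, against 23.3, 25.6 and 23.96 CPM in Tg26 mice given NR. Sdhaf3, which helps mature the iron-sulfur subunit Sdhb, had 6.86, 7.59 and 6.01 CPM, against 4.53, 5.01 and 5.13 CPM. Neither pair of groups overlapped, and the log2 differences were 0.28 and 0.48, short of the edgeR threshold at adjusted p of 0.0569 and 0.064. All 4 Sdhaf genes had an unadjusted p under 0.05 and no overlap between the groups, with log2 differences of 0.26 to 0.48. The 4 complex II subunits had a median of 0.10, and Sdha, named after its values were seen, had -0.02. Over all 106 members, 14 were higher and 1 lower at an unadjusted p under 0.05, against 14.3% and 12.9% of all genes. Without overlap, 12 were higher and 2 lower, against 15.4% and 12.5%.

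Cox6b2, the testis form of a complex IV subunit, was lower. It had 2.02, 2.79 and 1.83 CPM in Tg26 mice given INT-747, against 7.07, 3.53 and 11.1 CPM in Tg26 mice given NR. The groups did not overlap, but the NR libraries ranged widely among themselves. The log2 difference was -1.70 ± 0.46 (SE), with an edgeR adjusted p of 0.0569, just short of the threshold. It passed the threshold under 4 of 28 alternatives, with DESeq2 (adjusted p 0.0040), with a score of circadian clock genes as a covariate (edgeR adjusted p 0.0212), and without replicate 1 of the WT NR group or replicate 2 of the Tg26 NR group (edgeR adjusted p 0.0392 and 0.0170). Its log2 difference ran from -2.04 to -1.26 over the alternatives. Its ubiquitous partner Cox6b1 differed by 0.18 (edgeR adjusted p 0.214). Of the other members given by rule, the ATP synthase subunits Atp5k and Atp5j2 differed by 0.32 and 0.21, the Rieske protein Uqcrfs1 by 0.22 and the small complex III subunit Uqcr10 by 0.17. In complex IV, Cox7a2 had 0.25 (edgeR adjusted p 0.154). None of these passed the edgeR test. The other isoform genes, none of them called, differed by 0.15 for Cox7a1, 0.21 for Ndufa4, -0.30 for Ndufa4l2, -0.08 for Cox4i1, -0.05 for Cox6a1 and 0.13 for Cox8a. Ndufa4l2 was lower without overlap between the groups.

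The 13 mitochondrial genes lay in the higher direction with copies added, and none was called in either form. mt-Nd6 had 1754, 1748 and 2096 CPM in Tg26 mice given INT-747, against 1362, 1537 and 1679.9 CPM in Tg26 mice given NR, the 1 mitochondrial gene without overlap, and differed by 0.29 (edgeR adjusted p 0.145). The other complex I genes differed by 0.29 for mt-Nd1, 0.26 for mt-Nd2, 0.26 for mt-Nd3, 0.15 for mt-Nd4, 0.16 for mt-Nd4l and 0.21 for mt-Nd5. mt-Co1 had 0.01, mt-Co2 0.17, mt-Co3 0.14, mt-Cytb 0.15, mt-Atp6 0.14 and mt-Atp8 0.21.

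**Figure D3:**
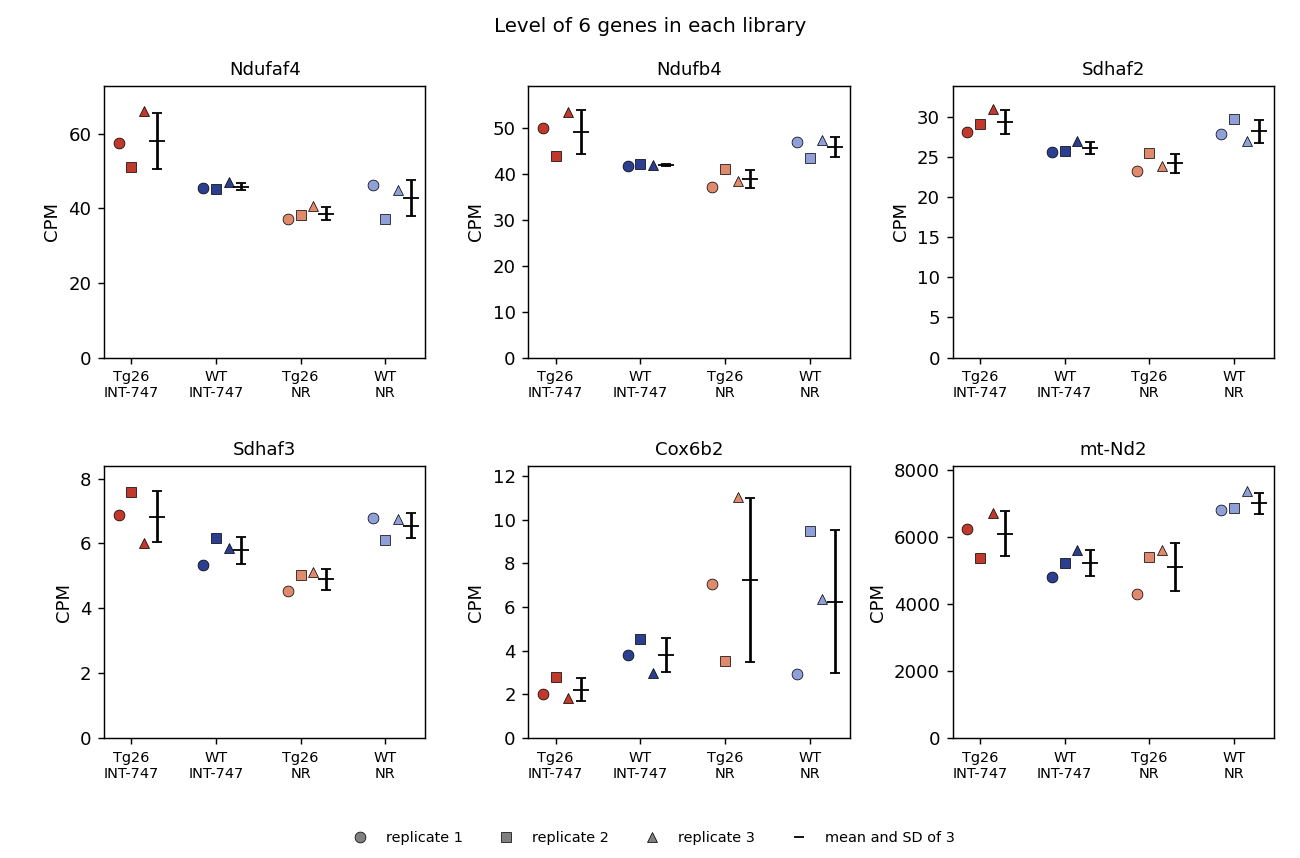
CPM of Ndufaf4, Ndufb4, Sdhaf2, Sdhaf3, Cox6b2 and mt-Nd2 in each library; points are libraries, and bars give the mean and SD of 3. For Ndufaf4, Ndufb4, Sdhaf2 and Sdhaf3 the 3 Tg26 libraries given INT-747 lie above the 3 Tg26 libraries given NR, and for mt-Nd2 the 3 WT libraries given NR lie above all others.

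Single libraries decided part of this. Leaving out replicate 1 of the Tg26 NR group, the library with the highest macrophage markers, brought the median difference to 0.05 for nuclear members and 0.05 for mitochondrial genes (with copies added 0.03 and 0.05), with 0 members and 0.296% of all genes called, while assembly factors stayed at 0.25. Leaving out the female replicate 3 gave 0.19 and 0.26, with 0 members and 0.393% of all genes called, and 13 of 13 mitochondrial genes higher (a median of 0.27 with copies added). The call of Ndufaf4 was lost without Tg26 INT-747 replicate 1 or 3, Tg26 NR replicate 1 or 3, or WT INT-747 replicate 1. Its log2 difference stayed between 0.48 and 0.65 over the 12 left-out libraries. Those of Ndufb4 and Ndufb4c were kept only without replicate 2 of the Tg26 INT-747 or the Tg26 NR group, where their log2 differences ran from 0.26 to 0.39 and from 0.25 to 0.39 over all 12. With a term for the female library 0 members and 0.236% of all genes were called, and with replicate number as a block 1 member and 0.452%. The scaling mattered too. With library totals in place of TMM factors, the median of all genes shifted to -0.18, the nuclear members to -0.01 and the mitochondrial genes to 0.07. As a share of library counts, nuclear members thus lost their direction, but they stayed above the typical gene. Summed macrophage markers were 128, 356 and 109 CPM in Tg26 mice given INT-747, against 609, 284 and 67.8 CPM in Tg26 mice given NR, with 7 of 8 markers lower by fold and none called. Summed proximal tubule markers were 42678, 36226 and 46039 CPM, against 22242, 38723 and 17072 CPM, with 8 of 12 higher and Slc5a12, a lactate transporter, called lower at -0.79. The median log2 difference over the 12 proximal tubule markers was 0.14. All 5 principal cell and all 5 intercalated cell markers were lower too, with the water channel Aqp2 called at -0.68 and the transcription factor Foxi1 at -1.30 (these 3 markers were named after their values were seen). The part of these cell types in the differences was not tested.

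The genotype comparison under NR ran in the opposite sense. In Tg26 mice given NR, against WT mice given NR, 72 of 93 nuclear members were lower, with a median log2 difference of -0.07, and all 13 mitochondrial genes, with a median of -0.21. Among all genes tested, 51.4% were lower and the median was -0.01. With copies added the mitochondrial median was -0.20, again with 13 of 13 lower. By edgeR, 0 members and 0 of 15708 genes passed the adjusted threshold (0% called). At an unadjusted p under 0.05, 13 members were lower and 0 higher, against 8.73% and 11.9% of all genes, and DESeq2 called 1 member, mt-Nd2, where it called 6.07% of all genes. The libraries of the groups did not overlap for 19 members that were lower, against 9.54% of all genes, and for 1 that was higher, against 10.2%.

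The smallest p among members was that of mt-Nd2, a membrane core subunit of complex I. It had 4288, 5405 and 5618 CPM in Tg26 mice given NR, against 6789, 6861 and 7356 CPM in WT mice given NR. The 3 WT libraries lay above the 3 Tg26 libraries, and the log2 difference was -0.46 ± 0.13 (SE) (edgeR adjusted p 0.137). In WT mice given INT-747 mt-Nd2 had 4816, 5222 and 5612 CPM, a log2 difference of -0.42 ± 0.13 (SE) from WT mice given NR (edgeR adjusted p 0.794). These groups did not overlap either. mt-Nd2 had no copy at that identity. Its neighbour mt-Nd1 had 6478, 7968 and 10126 CPM in Tg26 mice given NR, against 9594, 9107 and 9946 CPM in WT mice given NR, and these groups overlapped.

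Of the other mitochondrial genes, mt-Nd5 and mt-Nd6, also of complex I, had non-overlapping groups. mt-Nd5 had 5209, 6237 and 6396 CPM in Tg26 mice given NR, against 6950.5, 8098 and 7224 CPM in WT mice given NR, a log2 difference of -0.32 (edgeR adjusted p 0.214). mt-Nd6, the only subunit read from the light strand, had 1362, 1537 and 1679.9 CPM, against 1819, 1919 and 1751 CPM, and -0.26 (edgeR adjusted p 0.238). For both, every Tg26 library lay below every WT library. With copies added, the remaining genes differed by -0.22 for mt-Nd1, -0.12 for mt-Nd3, -0.20 for mt-Nd4 and -0.26 for mt-Nd4l. Cytochrome b, mt-Cytb, differed by -0.21. The complex IV genes mt-Co1, mt-Co2 and mt-Co3 differed by -0.10, -0.17 and -0.15, and mt-Atp6 and mt-Atp8 of ATP synthase by -0.19 and -0.17. The libraries of each of these 10 genes overlapped between the groups.

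Among nuclear members under NR, complex II stood lowest in median, at -0.20 over all 8 members and -0.16 over its 4 subunits, each of them lower. Sdhaf3 had 4.53, 5.01 and 5.13 CPM in Tg26 mice given NR, against 6.79, 6.11 and 6.74 CPM in WT mice given NR. Its log2 difference was -0.42 ± 0.14 (SE) (edgeR adjusted p 0.15). The flavin factor Sdhaf2 had 23.3, 25.6 and 23.96 CPM in Tg26 mice given NR, against 27.96, 29.8 and 26.97 CPM in WT mice given NR, and -0.22 (edgeR adjusted p 0.159). Neither overlapped. In complex I the accessory subunits Ndufv3 and Ndufb4 differed by -0.33 and -0.24, and in complex III the Rieske protein Uqcrfs1 by -0.27 and the core protein Uqcrc2 by -0.20. Uqcrfs1 had 246, 296 and 313 CPM in Tg26 mice given NR, against 363, 329 and 338 CPM in WT mice given NR, so that every Tg26 library was below every WT library. In complex V the F1 subunits Atp5b and Atp5c1 differed by -0.25 and -0.17, also without overlap. In complex IV 8 of the 11 common subunits were lower, with a median of -0.06. The 2 members of smallest p there were in the higher direction, the muscle form Cox7a1 at 0.36 and the supercomplex factor Cox7a2l at 0.14, both with overlap. The edgeR adjusted p of these genes ran from 0.15 for Sdhaf3 to 0.366 for Atp5c1. Among the other isoform genes the widely expressed forms were in the lower direction, at -0.17 for Ndufa4, -0.13 for Cox6b1, -0.12 for Cox7a2, -0.09 for Cox6a1, -0.07 for Cox8a and -0.03 for Cox4i1. The partner forms Ndufa4l2 and Cox6b2 had 0.38 and 0.21, and none of the isoform genes passed the edgeR test.

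The size of this difference depended on the same libraries. Without replicate 1 of the Tg26 NR group the medians were -0.01 for nuclear members (52 of 93 lower) and -0.09 for mitochondrial genes (10 of 13 lower), or 0.01 and -0.08 with copies added, so that the nuclear median changed sign. Without the female replicate 3 they were -0.14 (82 lower) and -0.32 (13 lower), with a mitochondrial median of -0.30 with copies added, and edgeR called 0 members and 2.08% of all genes. With library totals in place of TMM factors, the median of all genes was 0.17, that of nuclear members 0.10 and that of mitochondrial genes -0.04. As a share of library counts the nuclear direction thus turned, while relative to the typical gene both sets remained lower. The summed macrophage markers were 609, 284 and 67.8 CPM in Tg26 mice given NR, against 82.8, 51.00 and 58.99 CPM in WT mice given NR, with 8 of 8 higher. The fibroblast sum was 562, 192 and 91.8 CPM, against 96.7, 66.98 and 65.2 CPM, with 5 of 5 higher. Proximal tubule markers summed to 22242, 38723 and 17072 CPM in Tg26 mice given NR, against 45012, 33428 and 36736 CPM in WT mice given NR, with 10 of 12 lower. Their median log2 difference was -0.18. Thick ascending limb markers were higher for 6 of 6. None of these markers was called, and their part in the difference was not tested.

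**Figure D4:**
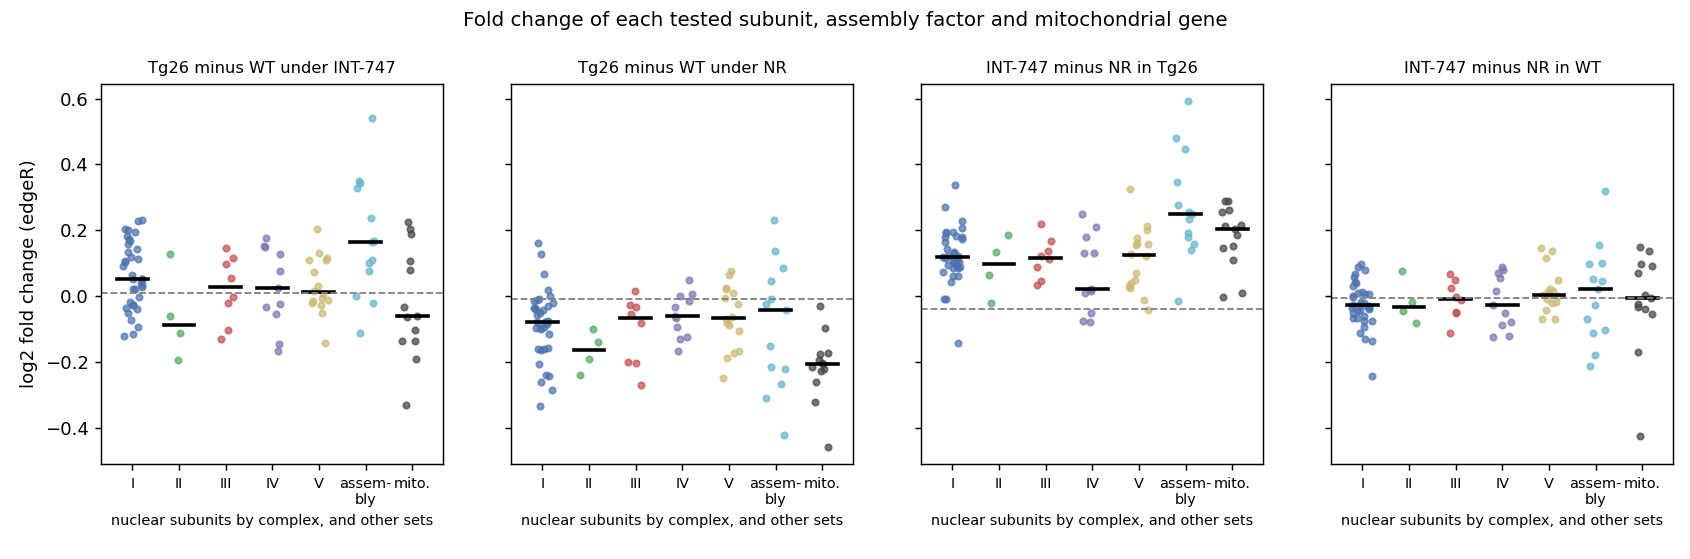
Log2 fold change from edgeR of each tested nuclear subunit by complex, of the assembly factors and of the mitochondrial genes, in 4 comparisons; each point is a gene, black bars are medians and the dashed line is the median of all genes tested. In Tg26 mice, the set medians of INT-747 minus NR lie between 0.02 and 0.25, and those of Tg26 minus WT under NR between -0.21 and -0.04.

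Under INT-747, the medians of the genotype comparison were near 0 for the nuclear subunits of complexes I, III, IV and V. They were lower for complex II subunits and higher for assembly factors, and no member passed the test. In Tg26 mice given INT-747, against WT mice given INT-747, 59 of 93 nuclear members were higher, with a median log2 difference of 0.05, and 5 of 13 mitochondrial genes, with a median of -0.06 as deposited and -0.01 with copies added. All genes had a median of 0.01, with 51.7% higher. The 13 assembly factors had a median of 0.17, with 11 higher. The 4 complex II subunits had a median of -0.09, with 3 lower. Among them Sdha, named after its values were seen, differed by -0.19 without overlap. Under NR it also differed by -0.19, with overlap. By edgeR, 0 members passed, while 0.267% of all genes did, and DESeq2 also called 0 members, where it called 3.35% of all genes. At an unadjusted p under 0.05, 7 members were higher and 0 lower, against 7.47% and 7.82% of all genes. Without overlap, 17 members were higher, against 12.5% of all genes, and 7 lower, against 13.5%.

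Ndufaf4 had 57.3, 51.02 and 65.9 CPM in Tg26 mice given INT-747, against 45.3, 45.1 and 46.98 CPM in WT mice given INT-747. The groups did not overlap, and the log2 difference was 0.34 ± 0.11 (SE) (edgeR adjusted p 0.186). Sdhaf4, which helps join Sdha to Sdhb, had 14.02, 11.1 and 12.4 CPM, against 7.71, 8.60 and 9.44 CPM, again without overlap, and 0.54 ± 0.19 (SE) (edgeR adjusted p 0.229). The largest fold among members was that of Cox6b2, which had 2.02, 2.79 and 1.83 CPM in Tg26 mice given INT-747, against 3.81, 4.54 and 2.99 CPM in WT mice given INT-747. These groups did not overlap, and the log2 difference was -0.77 ± 0.46 (SE) (edgeR adjusted p 0.444). For Ndufb4 and Sdhaf2 the log2 differences were 0.23 and 0.17, and for Atp5k and Atp5j2 0.20 and 0.13. Cox4i1 and Uqcrc2, a core protein of complex III, differed by -0.17 and -0.13, and Cox7a2 and Uqcrq by 0.18 and 0.15. None of these passed the edgeR test. The other isoform genes had 0.25 for Cox7a1, 0.15 for Cox8a, 0.08 for Cox6b1, 0.02 for Ndufa4, -0.02 for Cox6a1 and -0.16 for Ndufa4l2, with no calls. The 3 mitochondrial genes of complex IV differed by -0.18, -0.01 and -0.05 for mt-Co1, mt-Co2 and mt-Co3 with copies added. As deposited, mt-Co2 had -0.33 with no overlap. The single non-overlapping mitochondrial gene as deposited thus no longer stood out once its copy was added. The other mitochondrial genes overlapped between the groups. With copies added they differed by 0.11 for mt-Nd1, 0.22 for mt-Nd2, 0.22 for mt-Nd3, -0.03 for mt-Nd4, -0.04 for mt-Nd4l, -0.10 for mt-Nd5 and 0.08 for mt-Nd6. mt-Cytb had -0.06, mt-Atp6 -0.00 and mt-Atp8 0.20.

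A score of circadian clock genes, whose high and low members are known from time-of-day studies, ran from 2.46 to 3.19 in Tg26 mice given INT-747, against -0.20 to 0.66 in WT mice given INT-747. These groups did not overlap in the score, so genotype and score cannot be told apart under INT-747. The scores were 2.89, 3.60 and 0.57 in Tg26 mice given NR and 3.27, 0.15 and -0.62 in WT mice given NR. With the score as a covariate over all 12 libraries, the medians were 0.10 for nuclear members, 0.12 for assembly factors and 0.08 for mitochondrial genes. The mitochondrial median thus changed sign. Cox6b2 changed sign as well, to 0.25.

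In WT mice the median differences between the agents were near 0. In WT mice given INT-747, against WT mice given NR, 42 of 93 nuclear members and 6 of 13 mitochondrial genes were higher, and 48.7% of all genes. Medians were -0.02 and -0.004, and all genes had -0.01. With copies added, 4 of 13 mitochondrial genes were higher and their median was -0.04. By edgeR, 0 members passed, while 0.0127% of all genes did. At an unadjusted p under 0.05, 1 member was higher and 2 lower, against 2.66% and 2.35% of all genes, and DESeq2 called 0 members, where it called 0.35% of all genes. Without overlap, 6 were higher and 10 lower, against 6.65% and 6.21%. At an unadjusted p under 0.05 the members lower were mt-Nd2 and the accessory subunit Ndufa6, and the member higher was the assembly factor Ndufaf5. Ndufa6 had 111, 112 and 117 CPM in WT mice given INT-747, against 142, 133 and 127 CPM in WT mice given NR, a log2 difference of -0.24 ± 0.09 (SE) (edgeR adjusted p 0.832). Ndufaf5, which hydroxylates a complex I core subunit, differed by 0.32 (edgeR adjusted p 0.961). For Atp5e and Atp5k of complex V the log2 differences were 0.14 and 0.15, for Uqcrq and Uqcr11 of complex III -0.11 and 0.07, and for Sdhaf2 and Sdhaf3 -0.11 and -0.18. Cox6b2 and Cox7a1, the complex IV members of smallest p, had -0.72 and 0.26. The other isoform genes lay between -0.12 for Cox6a1 and 0.25 for Ndufa4l2, with -0.09 for Cox8a, -0.05 for Cox7a2, -0.03 for Cox6b1, 0.02 for Ndufa4 and 0.06 for Cox4i1. With copies added, mitochondrial complex I genes other than mt-Nd2 had -0.08 for mt-Nd3, -0.05 for mt-Nd4l, -0.05 for mt-Nd6, -0.04 for mt-Nd1, -0.02 for mt-Nd4 and -0.00 for mt-Nd5. mt-Atp8 had -0.17 without overlap, mt-Atp6 -0.05, mt-Cytb 0.01, mt-Co1 0.10, mt-Co2 0.01 and mt-Co3 0.04. None of these passed the edgeR test.

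Whether genotype acted differently under the 2 agents was tested by the interaction, the Tg26 minus WT difference under INT-747 less that under NR. It was above 0 for 76 of 93 nuclear members, with a median of 0.15, and for 11 of 13 mitochondrial genes, with a median of 0.17, or 12 of 13 and 0.22 with copies added. Among all genes tested, 47.7% were above 0 and the median was -0.03. By edgeR, 0 members and 0 of all genes passed (0% called). At an unadjusted p under 0.05, 9 members were above 0 and 0 below, against 8.63% and 6.82% of all genes. DESeq2 called 2 members, Ndufb4 and mt-Nd2, and 1.57% of all genes. The interaction term was 0.68 ± 0.19 (SE) for mt-Nd2, 0.66 ± 0.20 (SE) for Sdhaf3 and 0.47 ± 0.12 (SE) for Ndufb4 (edgeR adjusted p 0.243, 0.25 and 0.232). It was 0.49 for Ndufaf4, 0.39 for Sdhaf2, 0.27 for Uqcrfs1, 0.18 for Uqcr10, 0.22 for Atp5f1 and 0.19 for Atp5j2. Among the isoform genes it was 0.30 for Cox7a2 and -0.11 for Cox7a1, 0.21 for Cox6b1 and -0.98 for Cox6b2, and 0.19 for Ndufa4 and -0.55 for Ndufa4l2. In each of these 3 pairs the widely expressed form was above 0 and its partner below. Cox8a had 0.22, Cox6a1 0.07 and Cox4i1 -0.13. With copies added, the other mitochondrial genes of complex I had 0.34 for mt-Nd6, 0.34 for mt-Nd3, 0.33 for mt-Nd1, 0.22 for mt-Nd5, 0.22 for mt-Nd4l and 0.17 for mt-Nd4. mt-Atp8 had 0.38, mt-Atp6 0.19, mt-Co2 0.16, mt-Cytb 0.15, mt-Co3 0.11 and mt-Co1 -0.08. None passed the edgeR test.

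The Tg26 NR group enters this term and both comparisons above, so they are not independent of each other. Without its replicate 1 the medians were 0.07 for nuclear members and 0.04 for mitochondrial genes (0.10 with copies added), and without replicate 3 they were 0.19 and 0.26 (0.29 with copies added). With library totals in place of TMM factors they were -0.03 and -0.004, below 0, while the median of all genes was -0.20.

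Ratios between members need no scaling across libraries and were therefore compared as well, as descriptions. Mitochondrial genes with copies added took 11.5% to 14.4% of a library's counts, where 7.90% to 9.91% would be read from the deposited rows alone, and nuclear members took 1.97% to 2.23%. Counts of mitochondrial genes with copies per count of nuclear members were 5.99, 5.996 and 6.41 in Tg26 mice given INT-747 and 5.99, 6.62 and 6.20 in WT mice given INT-747. They were 5.80, 5.78 and 6.43 in Tg26 mice given NR and 5.79, 6.55 and 6.32 in WT mice given NR. All 4 groups overlapped, so no shift of mitochondrial against nuclear transcripts was seen beyond the spread between libraries.

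Within the nuclear set, some shares did not overlap between groups. Assembly factor counts per 1000 nuclear subunit counts were 14.5, 14.7 and 14.5 in Tg26 mice given INT-747 and 12.7, 12.8 and 12.9 in WT mice given INT-747, without overlap between these groups. In Tg26 mice given NR they were 14.9, 12.9 and 12.3, and in WT mice given NR 13.04, 12.04 and 12.3. Replicate 1 of the Tg26 NR group had the highest ratio of all 12 libraries. Complex II subunits made up 8.37, 8.42 and 8.34% of nuclear subunit counts in Tg26 mice given INT-747, against 8.92, 8.95 and 8.65% in WT mice given INT-747 and 8.68, 8.74 and 8.60% in Tg26 mice given NR. Their share was below both, while complex I subunits, at 23.3, 23.4 and 23.3%, lay above the 22.7, 22.3 and 22.6% of WT mice given INT-747 and narrowly above the 23.3, 22.7 and 22.4% of Tg26 mice given NR.

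The complex V share was below WT in Tg26 mice on either agent. It was 44.1, 44.1 and 44.4% in Tg26 mice given INT-747, against 44.4, 44.9 and 45.02% in WT mice given INT-747, and 43.5, 44.6 and 44.1% in Tg26 mice given NR, against 44.8, 44.8 and 44.7% in WT mice given NR. The groups did not overlap in either comparison, though the nearest libraries lay close together (44.403% and 44.419% under INT-747). Such a share follows the most abundant subunits, Atp5b and Atp5a1 in complex V and Sdha in complex II. Atp5a1 was named after its values were seen. Of the 16 complex V subunits, 9 were higher in Tg26 mice than in WT mice under INT-747, with a median log2 difference of 0.01. Under NR 11 of them were lower, with a median of -0.07. Complex IV subunits made up 13.99, 13.5 and 14.4% in Tg26 mice given NR, above the 13.1, 13.4 and 13.2% of WT mice given NR.

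Among mitochondrial genes with copies added, mt-Nd2 took 4.90, 4.74 and 4.74% of the counts in Tg26 mice given INT-747 and 3.88, 3.81 and 4.19% in WT mice given INT-747. It took 4.42, 4.79 and 4.07% in Tg26 mice given NR and 5.37, 4.99 and 5.62% in WT mice given NR. The groups did not overlap in either genotype comparison, and the order was opposite: Tg26 above WT under INT-747 and Tg26 below WT under NR. Under INT-747 the shares of mt-Nd1, mt-Nd3, mt-Nd6, mt-Co2, mt-Atp6 and mt-Atp8 were also higher in Tg26 mice without overlap. That of mt-Co1 was lower, at 28.0, 27.6 and 27.7% against 30.5, 30.9 and 29.6%. Shares of a total are not independent of each other, and no background over other genes was computed for them. In CPM with copies added, all of these genes, mt-Nd2 and mt-Co1 included, overlapped between the groups under INT-747. Under NR, mt-Nd2 was the only mitochondrial gene whose share did not overlap. Complex IV genes took 51.1, 50.9 and 50.3% in Tg26 mice given INT-747, below the 53.1, 53.4 and 52.3% of WT mice given INT-747 and the 52.3, 51.4 and 54.1% of Tg26 mice given NR. In WT mice given NR they took 50.1, 51.7 and 50.2%. These libraries overlapped those of Tg26 mice given INT-747 and lay below all those of WT mice given INT-747.

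**Figure D5:**
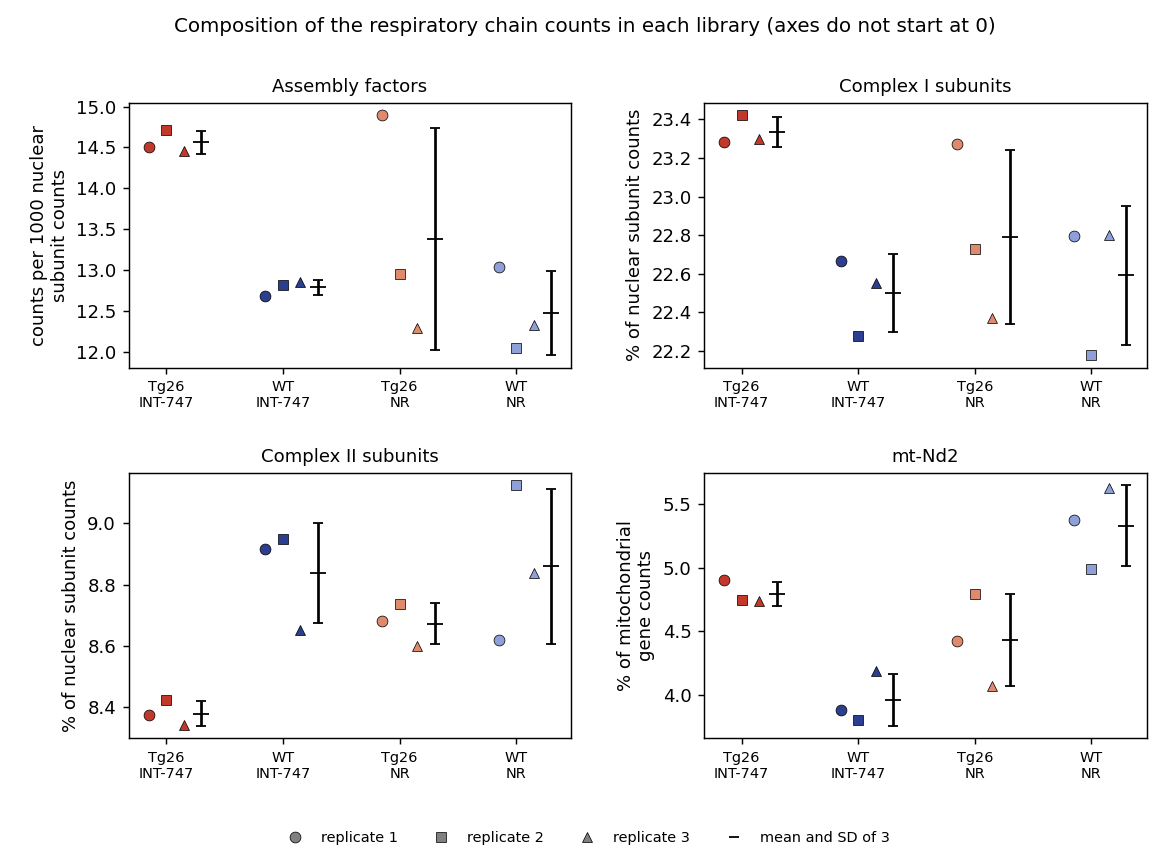
Assembly factor counts per 1000 nuclear subunit counts, complex I and complex II subunits as a percentage of nuclear subunit counts, and mt-Nd2 as a percentage of mitochondrial gene counts with copies added, in each library (axes do not start at 0); bars give the mean and SD of 3. The 3 Tg26 libraries given INT-747 lie above the 3 WT libraries given INT-747 in every panel but complex II, where they lie below.

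Genes around the chain that the symbol rule left out were taken from lists and set beside the members. In Tg26 mice given INT-747, against Tg26 mice given NR, 9 of them rose by edgeR, where 2.9% of all genes were called higher. Of the 110 tested genes in these lists 90 were higher, with a median log2 difference of 0.16. Without replicate 1 of the Tg26 NR group 83 were higher and 0 were called by edgeR, without its replicate 3 the counts were 97 and 0, and with library totals in place of TMM factors they were 60 and 3. Of 11 further complex I assembly factors 10 were higher and 1 was called, Acad9, at 0.77 ± 0.15 (SE) (edgeR adjusted p 0.0287). Acad9 had 164, 132 and 185 CPM in Tg26 mice given INT-747, against 79.00, 113 and 88.95 CPM in Tg26 mice given NR. It works in the same assembly intermediate as Ecsit, which had 0.37 and did not pass. Of 9 genes of complex III assembly and cytochrome c1, 8 were higher and Bcs1l, which inserts the Rieske protein, was called at 0.49. Of 22 tested complex IV assembly factors 19 were higher and 2 were called, the copper chaperone Sco1 at 0.45 and Cox16 at 0.36. Of 5 factors of complex V, 4 were higher and 0 were called by edgeR, with 3 at an unadjusted p under 0.05, Atpaf2 at 0.28, Tmem242 at 0.24 and Tmem70 at 0.30.

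Of 20 electron carriers and ubiquinone genes, 16 were higher in Tg26 mice given INT-747 and 2 were called. Cytochrome c, Cycs, had 363, 343 and 425 CPM in Tg26 mice given INT-747, against 193, 256 and 184 CPM in Tg26 mice given NR. Every library of the INT-747 group lay above the NR group, and the log2 difference was 0.84 ± 0.16 (SE) (edgeR adjusted p 0.0287). Pdss1, which makes the ubiquinone side chain, differed by 0.82 (edgeR adjusted p 0.0427). Of 31 genes of mitochondrial DNA and RNA handling, 26 were higher and 3 were called: the transcription elongation factor Tefm at 0.65, the mRNA-stabilising Lrpprc at 0.37 and the ribosome assembly factor Fastkd2 at 0.71. Of 12 nuclear regulators 7 were higher and 0 were called by edgeR, with 2 at an unadjusted p under 0.05. The nuclear receptor Esrra differed by 0.36, Gabpa by 0.31 and the coactivator Ppargc1a, named after its values were seen, by -0.08. In Tg26 mice given NR, against WT mice given NR, 28 of the 31 mitochondrial gene expression genes and 17 of the 20 carriers were lower, with medians of -0.16 and -0.21 and 0 called by edgeR, with 12 and 5 lower at an unadjusted p under 0.05. Over all genes tested, 51.4% were lower and 8.73% were lower at that p. Without replicate 1 of the Tg26 NR group, 27 and 17 were lower, with medians of -0.19 and -0.12. Without its replicate 3, 30 and 16 were lower, with medians of -0.19 and -0.20, and 1 carrier was called by edgeR, the electron transfer flavoprotein dehydrogenase Etfdh (named after its values were seen). With library totals in place of TMM factors, 15 and 12 were lower, with medians of 0.02 and -0.04, against 0.17 for all genes.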

How the data were processed

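Gene counts came from bulk mRNA libraries of mouse kidney outer cortex, made with a strand-marking kit per the labels' protocols. The deposited values are expected counts per gene as RSEM estimates them, all whole numbers in the file and not scaled to library size. Per the submitters' processing notes, the authors used bcl2fastq 2.17, cutadapt 1.18, STAR 2.7.0f, RSEM 1.3.1 and mm10; settings, rounding, annotation release and use of strand were not given in the sources used here. All 55450 gene IDs matched GENCODE M21 by ID and symbol, which served for coordinates, transcript lengths and overlaps.

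From the counts, genes with enough counts were kept with filterByExpr (15708 genes), scaled by TMM and fitted over all 12 libraries and 4 groups with edgeR 4.0.16 (quasi-likelihood, robust, 8 residual degrees of freedom, R 4.3.3). Adjusted p-values are Benjamini-Hochberg over all genes tested, with a threshold of 0.05. CPM use TMM-scaled library sizes, and CPM per kb divides by a principal transcript. Each contrast was Tg26 minus WT within an agent, INT-747 minus NR within a genotype, or their interaction. Non-overlap means that all 3 libraries of a group lie on one side of the other group's. DESeq2 1.42.0, limma 3.58.1 and other scalings, filters, covariates and left-out libraries were alternatives. The fit was tested on simulated counts with known changes.

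The members and lists were chosen with earlier results of these data known. The text names every called member or, under 10 calls, the 2 nuclear members of smallest p in each complex, all 13 mitochondrial genes, isoform pairs, the highest and lowest subunit per kb, and, in the treatment comparison of Tg26 mice alone, up to 3 genes of smallest p per list; others are said to be named after their values were seen. Replicate numbers were shared between groups, but deviations of same-numbered libraries correlated from -0.19 to 0.25, so they were not treated as pairs.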

Additional observations from a re-analysis of the deposited data

How the results depend on the processing

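Of 417 counts of calls and medians recomputed under the alternatives, 386 stayed within 1.5 times the main count or within the spread between libraries of the main median. That spread (pooled SD within groups) was 0.10 for nuclear and 0.16 for mitochondrial members. It was larger than several of the medians, so a median could change sign and still lie within it. Of the 278 recomputed medians, 19 changed sign. Library totals gave 10 of these, with or without copies summed, and 6 concerned INT-747 minus NR in WT mice, where the medians then ran up to 0.0354. The other 3 were the mitochondrial median for Tg26 minus WT under INT-747 with the clock score as a covariate (0.0768) and without replicate 2 of its Tg26 group (0.0136), and the nuclear median for Tg26 minus WT under NR with copies summed and without replicate 1 of its Tg26 group (0.0131). Most values that moved further concern the 3 members called within Tg26 mice (INT-747 minus NR). That count was 7 by DESeq2, 1 without the low-count filter, 1 with library totals only (also with copies summed), 0 when only the groups compared were fitted, 0 with a sex term, 0 with copies summed and without replicate 1 or 3 of the Tg26 NR group, and 0 to 5 when each library was left out in turn. With the replicate block it was 1, and the block changed no other count of calls. DESeq2 also called 1 member for Tg26 minus WT under NR and 2 for the interaction, where edgeR called 0.

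With library totals only, an alternative chosen after seeing the data, the nuclear and mitochondrial medians were 0.0966 and -0.0417 for Tg26 minus WT under NR, -0.0077 for the nuclear members in the treatment comparison of Tg26 mice, and -0.0269 and -0.0041 for the interaction. With copies summed as well, they were 0.0966 and -0.0367, then -0.0077 and 0.0364, and -0.0234 for the nuclear members of the interaction. The cause was not tested. Over left-out libraries the mitochondrial median for Tg26 minus WT under INT-747 ran from -0.1407 to 0.0136. Depth left 9 members, none above 21 counts in a library, untested.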
